A study of Mus musculus with 25 samples.

Results

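The *soleus* of mice that lack a functional *Dnmt3a* gene in muscle was compared with that of WT mice, all of them killed at rest. The comparison holds 12 of the 25 libraries of the study, 7 from mD3AKO and 5 from WT mice, 1 library per mouse, chosen by their labels for genotype and for the state before exercise. All 12 were C57BL/6 mice of 12 weeks that had spent 30 minutes in a sham treadmill arena, and all of them carried 2 floxed alleles of *Dnmt3a* (Dnmt3a flox/flox). The mD3AKO mice, 4 males and 3 females, also carried Cre recombinase under the muscle creatine kinase promoter (mCK-Cre), which removes exon 19 of *Dnmt3a*. The WT mice, 3 males and 2 females, had no Cre, so an effect of Cre itself and one of the deletion cannot be told apart. The promoter becomes active late in the formation of muscle fibers and in heart, so that satellite cells and the other cells of the tissue are thought to keep the gene, which was not tested here. The other 13 libraries, from 7 WT and 6 mD3AKO mice killed 60 minutes after a treadmill run, entered the same fit and are used below as a second set of mice.

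DNMT3A is one of the enzymes that place methyl groups on CpG dinucleotides that carry none, the step called *de novo* methylation. DNMT1 copies existing methylation to the new strand when DNA is replicated, and the TET enzymes oxidize methylcytosine, a first step of its removal. Methylation of CpG-rich promoters is known to go with silence of genes, such as those of the germline and one copy of imprinted genes. Fibers of adult muscle are post-mitotic, and the *soleus* is a postural muscle rich in slow fibers. The question of the comparison is which transcripts differ in resting muscle when *Dnmt3a* is lost in its fibers. Methylation itself was not analysed here.

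Counts per library ranged from 22671457 to 37145467 at rest, so that at the median WT total 1 CPM, the unit of reads scaled to library size (TMM) used below, stands for 33.2 reads. Mouse 15, a male mD3AKO mouse, stood apart. It had the lowest total, 39.5% of its counts fell on ribosomal RNA against 8.19% to 13.0% in the other 11 rested mice (31.6% of its counts on mitochondrial ribosomal RNA against 8.15% to 13.0%, and 7.90% on *CT010467.1* against at most 0.0590%), and its mean distance to the other rested libraries was 81.5 against 61.3 to 74.9 for the rest (Euclidean distance on log2 CPM over all tested genes). The called genes and the medians of the gene lists, other than those of cell type markers, are therefore given with and without this mouse. 4 genes with large differences at rest owed them to mouse 15, and none was called. They were chosen after their values were seen. The log2 fold change (log2FC, mD3AKO over WT) of *Lars2* was 6.31 with it and 0.99 without it, that of *CT010467.1* 5.88 and 0.33, that of *Gm15564* 5.00 and 1.36, and that of *Mir6236* 4.14 and 0.71. Markers of muscle fibers (*Acta1*, *Ckm*, *Mb*, *Des*, *Myh7* and *Tnnt1*) summed to 58480 to 68540 CPM in WT and 54830 to 74750 CPM in mD3AKO mice.

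*Dnmt3a* (ENSMUSG00000020661, chr12:3806007-3914443, forward strand, mm10) fell in every mD3AKO mouse. The WT mice 1, 11, 13, 14 and 20 had 98.5, 128, 125.5, 93.4 and 129.8 CPM, and the 7 mD3AKO mice had 34.55 CPM at the lowest, 42.1 at the median and 53.9 at the highest. The highest mD3AKO mouse was thus far below the lowest WT mouse. The WT mean was 115 ± 17.6 CPM (SD, n = 5). That of the mD3AKO mice was 43.4 ± 6.60 CPM (SD, n = 7), which is 62.3% less. In edgeR's quasi-likelihood fit, the log2FC was −1.41 with a standard error (SE) of 0.0995 and an adjusted p (Benjamini-Hochberg, over all tested genes) of 3.0e-09. It was −1.41 as well without mouse 15, where the adjusted p was 1.1e-08. These p-values measure the spread between single mice. Among the mD3AKO mice, the 4 males lay between 39.1 and 42.4 CPM, and the 3 females between 34.55 and 53.9 CPM. The deposited value sums the reads of all exons of the gene, so that transcripts without exon 19 are counted with whole ones. Fewer cells that carry *Dnmt3a* RNA and less of it per cell cannot be told apart in RNA of whole muscle, here and in the results that follow.

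Of 16340 genes tested at rest, 15 were called, that is, had an adjusted p under 0.05. This is 0.0918% of the tested genes. *Dnmt3a* was the only gene called lower in mD3AKO mice (0.00612%), and 14 genes were called higher (0.0857%). Without mouse 15, 13 of 16334 genes were called (0.0796%), all of them among the 15. The calls of *D430041D05Rik* and *Rab17* were lost without mouse 15, at an adjusted p of 0.0744 and 0.0720, and 0 genes were gained. At an unadjusted p under 0.05 there were 597 genes (3.65%), of which 340 were higher and 257 lower in mD3AKO mice. The median log2FC over all tested genes was 0.0083, and the median standard error of a gene was 0.130. For 12 of the 14 rises, each mD3AKO mouse lay above each WT mouse, with and without mouse 15. Over all tested genes, the groups did not overlap for 34 (0.208%), of which 27 were higher in mD3AKO mice (0.165%), which is given for scale only, since the calls rest on the same mice.

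**Figure D1:**
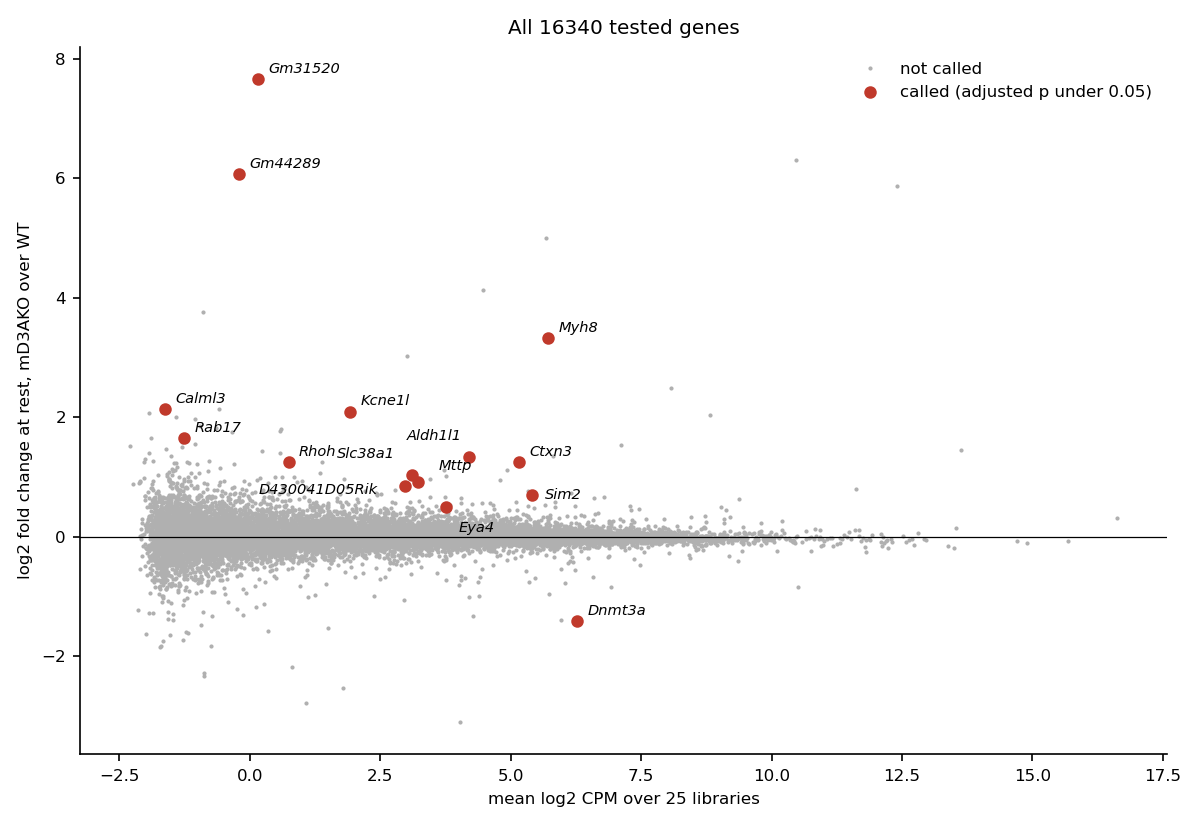
Log2 fold change of mD3AKO over WT *soleus* at rest (vertical) against the mean log2 CPM over 25 libraries (horizontal) for each of the 16340 tested genes. The 15 genes called at an adjusted p under 0.05 are red and named, 14 of them lie above 0, and *Dnmt3a* lies at −1.41.

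**Figure D2:**
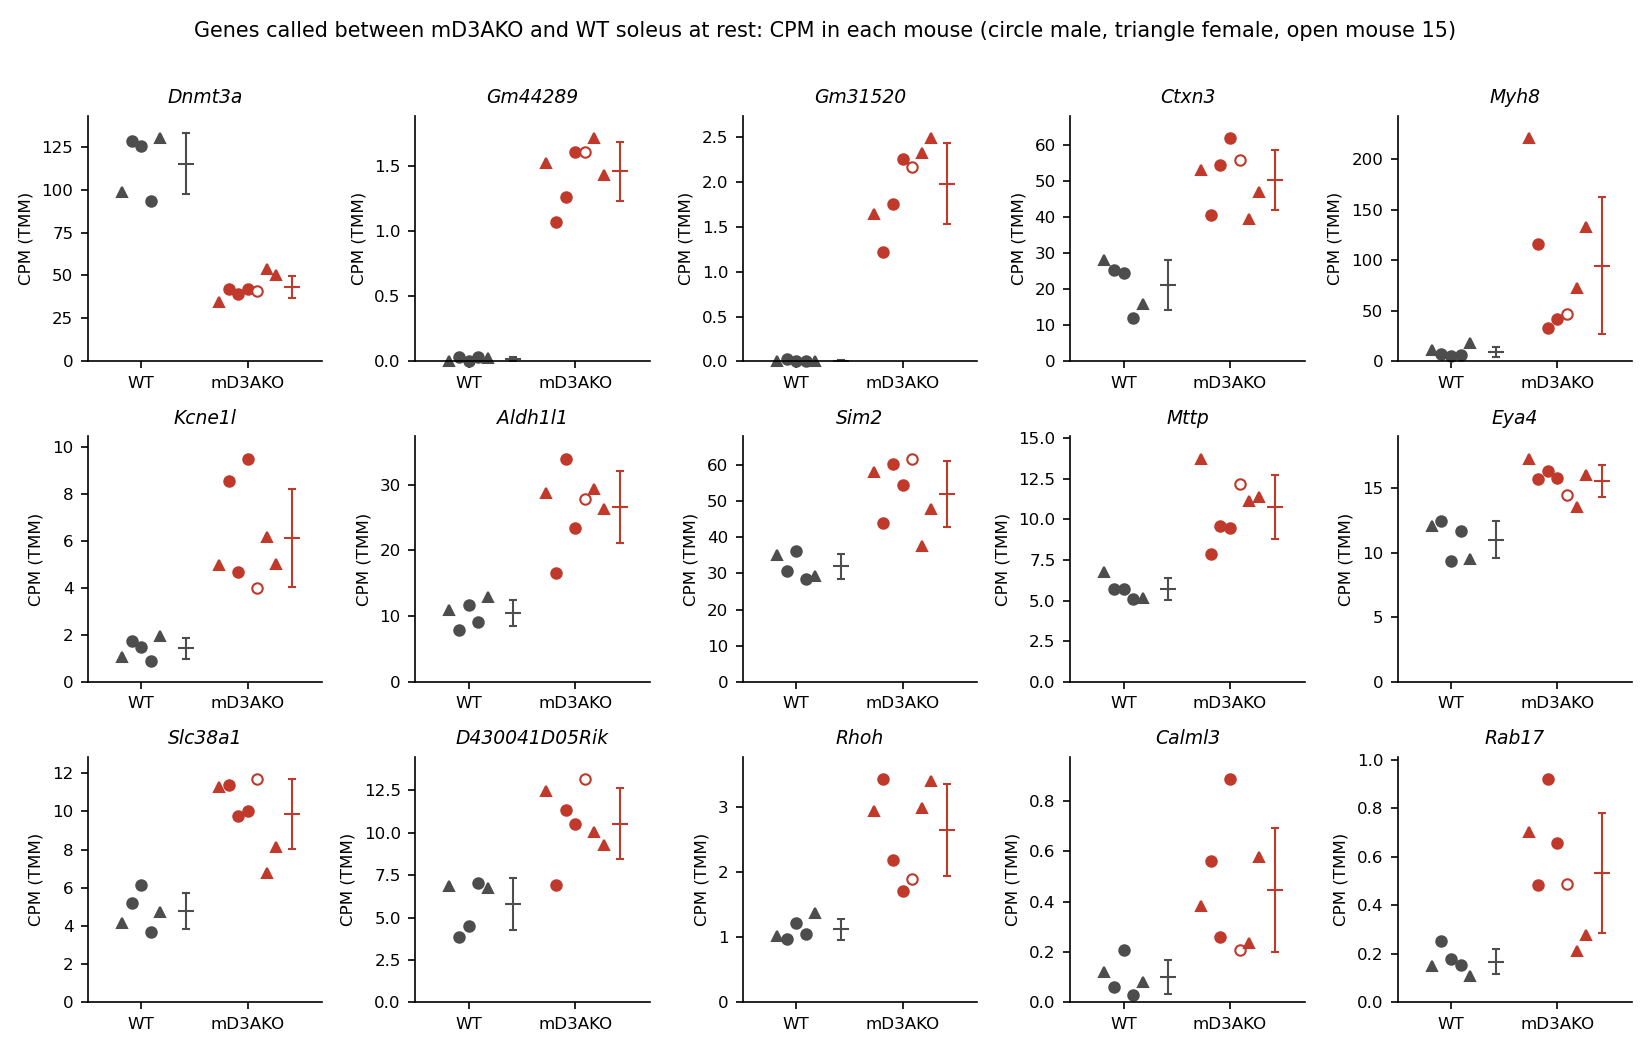
CPM of the 15 called genes in each of the 12 rested mice, with circles for males, triangles for females and an open symbol for mouse 15. The bars beside the points give the mean and the SD (n = 5 WT and n = 7 mD3AKO), and the groups overlap for *D430041D05Rik* and *Rab17*.

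Among the called genes, the largest ratios belonged to a pair of neighbouring pseudogenes on chromosome 6, which were all but unread in WT muscle. *Gm44289* (chr6:66254743-66258205, a processed pseudogene) had 0, 1, 0, 1 and 1 reads in WT mice 1, 11, 13, 14 and 20, and 23 to 65 reads in each of the mD3AKO mice. In all, 3 reads stood against 332, a ratio after scaling to library size of 80.8 with a 95% counting interval of 27.4 to 393.6. *Gm31520* (chr6:66264155-66284845, a transcribed processed pseudogene) had a single read in WT mouse 11 and 0 in the other 4, against 31 to 99 in each mD3AKO mouse. The totals were 1 and 452 reads, a ratio of 329.8 with an interval of 58.9 to 13060. The intervals are exact, cover counting error only and are wide because of the few WT reads. On the CPM scale the mD3AKO mice had 1.46 ± 0.225 CPM of *Gm44289* and 1.98 ± 0.453 CPM of *Gm31520* (SD, n = 7), with adjusted p-values from edgeR of 3.5e-08 and 1.6e-07, and of 1.1e-07 and 5.6e-07 without mouse 15. Both were on the forward strand, 5949 bases apart, with no exon of another gene on theirs, and of the 31-base words in their transcripts 0% and 4.24% were found in those of another gene. The nearest protein-coding genes of the annotation were 300.7 kb before (*4930544G11Rik*, not tested) and 250.5 kb after them. The latter, *Mad2l1*, which encodes a protein of the spindle checkpoint, had a log2FC of −0.096 (SE 0.154).

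Most of the 14 rises were of protein-coding genes with different known roles, and RefSeq promoters were matched for 8 of them. A chromosome was left out of the matching, so the lack of a window here does not mean that RefSeq has none. The windows run from 250 bases before to 50 bases after the start of a RefSeq transcript (GRCm38.p6, the assembly of mm10), and CpG was counted as the letters CG, which read the same on both strands. They are shown because CpG is the base pair step that DNMT3A methylates. Over all 32851 windows of the table, the median was 7 CG and the quartiles 3 and 20. The 6 genes with a single window are printed from the richest to the poorest in CG, in the direction of the gene, with each CG in capitals.
Mttp (chr3:138143369-138143668, reverse strand) held 27 CG.
Mttp: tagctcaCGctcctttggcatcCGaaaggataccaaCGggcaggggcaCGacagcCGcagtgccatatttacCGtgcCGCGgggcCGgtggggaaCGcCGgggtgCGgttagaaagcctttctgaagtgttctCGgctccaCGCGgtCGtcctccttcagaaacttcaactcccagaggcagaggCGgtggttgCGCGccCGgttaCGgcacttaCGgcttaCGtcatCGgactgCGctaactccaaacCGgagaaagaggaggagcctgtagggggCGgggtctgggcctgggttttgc
Kcne1l (chrX:142306149-142306448, reverse strand) held 12 CG.
Kcne1l: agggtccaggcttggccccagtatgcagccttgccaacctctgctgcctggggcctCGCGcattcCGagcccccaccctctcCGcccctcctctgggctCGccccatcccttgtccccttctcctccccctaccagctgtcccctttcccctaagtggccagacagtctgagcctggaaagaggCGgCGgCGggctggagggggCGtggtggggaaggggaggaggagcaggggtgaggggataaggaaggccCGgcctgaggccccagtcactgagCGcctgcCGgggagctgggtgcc
Aldh1l1 (chr6:90550543-90550842, forward strand) held 9 CG.
Aldh1l1: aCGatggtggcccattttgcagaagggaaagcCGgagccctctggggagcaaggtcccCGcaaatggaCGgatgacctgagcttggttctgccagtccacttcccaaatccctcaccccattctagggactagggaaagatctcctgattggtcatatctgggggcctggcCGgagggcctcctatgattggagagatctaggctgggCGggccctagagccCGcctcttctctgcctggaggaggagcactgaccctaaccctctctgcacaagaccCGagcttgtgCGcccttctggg
Rhoh (chr5:65863334-65863633, forward strand) held 9 CG.
Rhoh: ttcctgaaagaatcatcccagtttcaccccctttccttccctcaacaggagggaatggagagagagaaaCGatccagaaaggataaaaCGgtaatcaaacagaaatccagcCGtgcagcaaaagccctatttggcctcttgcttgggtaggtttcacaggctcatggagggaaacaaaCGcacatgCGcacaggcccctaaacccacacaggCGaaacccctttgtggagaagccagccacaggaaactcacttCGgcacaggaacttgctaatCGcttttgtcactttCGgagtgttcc
Myh8 (chr11:67276874-67277173, forward strand) held 6 CG.
Myh8: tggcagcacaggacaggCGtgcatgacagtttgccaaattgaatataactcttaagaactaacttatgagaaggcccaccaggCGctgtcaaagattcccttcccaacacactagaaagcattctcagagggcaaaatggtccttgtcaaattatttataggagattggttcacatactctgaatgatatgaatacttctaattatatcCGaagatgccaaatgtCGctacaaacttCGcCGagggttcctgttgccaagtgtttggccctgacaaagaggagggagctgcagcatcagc
Rab17 (chr1:90967618-90967917, reverse strand) held 5 CG.
Rab17: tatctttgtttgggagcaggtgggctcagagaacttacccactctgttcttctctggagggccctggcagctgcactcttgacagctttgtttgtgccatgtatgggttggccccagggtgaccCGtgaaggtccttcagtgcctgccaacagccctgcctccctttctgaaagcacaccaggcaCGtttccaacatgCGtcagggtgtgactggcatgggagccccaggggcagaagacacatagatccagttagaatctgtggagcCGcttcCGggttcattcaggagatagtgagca
Of all windows, 15.5% hold at least the 27 CG of *Mttp*, 39.6% at least 12, 45.8% at least 9, 56.4% at least 6 and 62.0% at least 5. The 2 windows of *Eya4* held 36 and 28 CG, and those of *D430041D05Rik* 37 and 32, counts that 6.23%, 14.2%, 5.58% and 9.52% of windows reach. The windows of these genes thus ranged from 5 to 37 CG. Those of *Myh8* and *Rab17* were below the median of all windows, and the rest above it.

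Among genes of contraction, *Myh8* rose the most. It encodes the perinatal myosin heavy chain, which adult fibers replace by slow and fast isoforms. WT mice 1, 11, 13, 14 and 20 had 10.9, 6.86, 5.73, 5.96 and 18.0 CPM, and the mD3AKO mice 32.7, 72.1 and 220.6 CPM at the lowest, median and highest. All mD3AKO mice were above all WT mice, with the 3 females between 72.1 and 220.6 CPM and the 4 males between 32.7 and 116 CPM. The log2FC was 3.32 (SE 0.486, adjusted p = 0.0012 from edgeR), and 3.43 without mouse 15. Without WT mice 11 and 13, a choice made after the data were seen, it was 3.03, at an adjusted p of 0.060. Of the 31-base words in its transcripts, 18.6% also occur in those of another gene, foremost *Myh2*, *Myh1* and *Myh4*, and how many of its reads this touches was not measured. *Myh2*, the isoform of type IIA fibers, had a log2FC of −0.15 (SE 0.143).

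In the list of fetal and perinatal contractile genes, 7 of 8 genes were tested and *Myh8* was the only one called, against 0.0918% of all tested genes. At an unadjusted p under 0.05, 4 of the 7 were higher and 0 lower, against 2.08% and 1.57% of all tested genes. The median log2FC was 0.79 with 7 of 7 values above 0. It was −0.062 with 3 of 7 above 0 without mouse 7, a male mD3AKO mouse, and 0.20 with 5 of 7 above 0 with DESeq2. *Myh3*, the embryonic myosin heavy chain, had 1.35 (SE 0.614, adjusted p = 1.00) and *Myl4*, the embryonic and atrial light chain, 0.97 (SE 0.453, adjusted p = 1.00). Both values rested on mouse 7, which had 506 CPM of *Myh3* against 20.6 to 72.7 CPM in the other 11 mice. Without mouse 7 they were −0.14 for *Myh3* and −0.062 for *Myl4*. Mouse 7 also had the highest summed CPM of fibroblast markers, 5638 against 1161 to 3801 CPM in the other rested mice, whose part in these values was not tested. *Actc1*, cardiac actin, had a log2FC of 0.043 (SE 0.236).

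3 rises were in enzymes or transporters of metabolism. *Aldh1l1* encodes cytosolic 10-formyltetrahydrofolate dehydrogenase, which takes one-carbon units out of the folate pool. It had 10.9, 7.87, 11.7, 9.14 and 12.9 CPM in WT mice 1, 11, 13, 14 and 20, and 16.5, 27.8 and 33.9 CPM as the lowest, median and highest of the mD3AKO mice. Every mD3AKO value was above the WT range, and the log2FC was 1.34 (SE 0.206, adjusted p = 0.0019 from edgeR; 1.32 without mouse 15). Exons of other genes cover 13.4% of its exonic length. *Mttp* encodes the microsomal triglyceride transfer protein, which loads lipid onto apolipoprotein B in liver and intestine. Its WT values were 6.77, 5.73, 5.73, 5.10 and 5.19 CPM, and its mD3AKO values ran from 7.86 over a median of 11.1 to 13.7 CPM. The groups did not overlap, with a log2FC of 0.91 (SE 0.145, adjusted p = 0.0026; 0.87 without mouse 15), and 9.49% of its exonic length lies opposite *Gm43691* and *Trmt10a*. *Slc38a1*, a sodium-coupled transporter of glutamine and other neutral amino acids, had 4.15, 5.20, 6.14, 3.67 and 4.75 CPM in WT mice and 6.79, 10.0 and 11.7 CPM as the lowest, median and highest in mD3AKO mice. Its log2FC was 1.04 (SE 0.184, adjusted p = 0.010), and 0.99 without mouse 15. Without mice 11 and 13, *Aldh1l1* and *Mttp* had log2FCs of 1.27 and 0.92, each at an adjusted p of 0.060 in edgeR. The call of *Slc38a1* was lost without WT mouse 1 or WT mouse 14, at adjusted p-values of 0.052 to 0.063.

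Of the transcriptional regulators called, both rose by less than 2-fold. *Sim2* encodes a bHLH-PAS transcription factor, and had 35.1, 30.6, 36.1, 28.6 and 29.3 CPM in WT mice. The mD3AKO mice had 37.5, 54.4 and 61.7 CPM at the lowest, median and highest, the lowest being mouse 21, just above the WT range. For *Sim2* the log2FC was 0.70 (SE 0.109, adjusted p = 0.0019 from edgeR; 0.65 without mouse 15). *Eya4*, a transcriptional coactivator with phosphatase activity, had 12.1, 12.4, 9.38, 11.7 and 9.55 CPM in WT mice and 13.5, 15.8 and 17.3 CPM in the same order of mD3AKO mice. It showed the smallest of the 14 rises, a log2FC of 0.50 (SE 0.0818, adjusted p = 0.0032; 0.51 without mouse 15), and the groups did not overlap. Fitted on the 12 rested libraries alone, *Sim2* and *Eya4* were not called by edgeR, at adjusted p-values of 0.072 and 0.086, and with library totals as the only scaling *Eya4* lost its call as well (adjusted p = 0.311). On average, WT mice had 11.0 ± 1.45 CPM of it (SD, n = 5), against 15.6 ± 1.24 CPM (SD, n = 7).

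Of membrane proteins, *Ctxn3* (cortexin 3, a small single-pass protein) had 28.1, 25.4, 24.5, 11.9 and 15.9 CPM in WT mice and 39.5, 53.1 and 61.8 CPM as the lowest, median and highest of the mD3AKO mice. Its log2FC was 1.25 (SE 0.179, adjusted p = 0.0010 from edgeR; 1.22 without mouse 15). *Kcne1l*, on the X chromosome, encodes an accessory subunit of voltage-gated potassium channels. It had 1.07, 1.73, 1.505, 0.895 and 1.97 CPM in WT mice and 3.99, 5.00 and 9.48 CPM in the same order of mD3AKO mice, where mouse 15 was the lowest. For *Kcne1l* it was 2.09 (SE 0.310, adjusted p = 0.0012) and 2.16 without mouse 15. Neither gene had overlapping groups. *Ctxn3* was called in the 12 rested libraries alone, but not in the 11 of them other than mouse 15 (edgeR adjusted p = 0.070).

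The last 4 rises were the least certain. *D430041D05Rik*, a protein-coding gene without an assigned role, had 6.86, 3.84, 4.49, 7.04 and 6.74 CPM in WT mice, and mouse 7, the lowest mD3AKO mouse, lay within that range at 6.94 CPM while the highest had 13.2 CPM. Its log2FC was 0.86 (SE 0.165, adjusted p = 0.028 from edgeR), and 0.79 without mouse 15. The call was lost without any of mice 2, 8, 11, 12, 13 and 15, with adjusted p-values of 0.059 to 0.164. It was also lost with library totals as the only scaling (0.073), with each group split by sex (0.071), in the rested libraries alone (0.311), and without mice 11 and 13 (0.873). *Rhoh*, a gene known from blood cells, had 1.01, 0.976, 1.21, 1.05 and 1.36 CPM in WT mice and 1.71, 2.93 and 3.42 CPM as the lowest, median and highest in mD3AKO mice. The log2FC was 1.24 (SE 0.240, adjusted p = 0.028; 1.29 without mouse 15), and the call was lost without any of mice 1, 2, 7, 11, 13, 14 and 24, with adjusted p-values of 0.072 to 0.158. *Rhoh* lost it as well with library totals only (0.185), with each group split by sex (0.056), and without mice 11 and 13 (0.538). Summed CPM of 8 immune cell markers ran from 82.0 to 114 in WT and from 51.6 to 170 in mD3AKO mice. The mD3AKO mice 7, 21 and 24 had both the 3 highest sums (170, 142 and 141) and the 3 highest *Rhoh* values (3.42, 2.98 and 3.395 CPM). Mice 2, 12 and 15 had sums of 60.8, 51.8 and 51.6, below the WT range, and *Rhoh* values of 2.93, 1.71 and 1.89 CPM, above it. The part of immune cells in the rise of *Rhoh* was not tested.

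*Calml3*, a calmodulin-like protein known from epithelia, and *Rab17*, a small GTPase of polarized transport in epithelia, were read rarely. WT mice 1, 11, 13, 14 and 20 had 4, 2, 7, 1 and 3 reads of *Calml3*, and the mD3AKO mice 3 to 27 reads. In CPM the groups did not overlap, with 0.207 at the highest in WT and 0.210 at the lowest in mD3AKO mice, which was mouse 15. The log2FC was 2.13 (SE 0.422, adjusted p = 0.037 from edgeR; 2.20 without mouse 15), and the call was lost in 11 of 25 fits that each left out 1 mouse, 8 of them leaving out a rested mouse, at adjusted p-values of 0.0503 to 0.204. *Rab17* had 5, 8, 6, 5 and 4 reads in the WT mice and 7 to 32 in the mD3AKO mice. With CPM, mouse 21 lay at 0.211, below WT mouse 11 at 0.252. Its log2FC was 1.65 (SE 0.328, adjusted p = 0.037; 1.66 without mouse 15), and the call was lost in 14 of the 25 fits, 9 of them leaving out a rested mouse, at adjusted p-values of 0.0503 to 0.159. Both genes lost their calls in edgeR with library totals as the only scaling (adjusted p = 0.073 for *Calml3* and 0.067 for *Rab17*), with no filter on low counts (0.075 and 0.086) and without mice 11 and 13 (0.125 and 0.13). With each group split by sex, *Calml3* had an adjusted p of 0.056 and *Rab17* of 0.043. In the rested libraries alone, *Rab17* had an adjusted p of 0.572 and *Calml3* did not pass the filter on low counts, and neither gene passed it at a minimum count of 30.

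The 15 genes that came next by p were not called by edgeR, while DESeq2 called 8 of them, *Eef1a1*, *1600002K03Rik*, *Cux2*, *Plin3*, *H19*, *Gm37336*, *Egr1* and *Egr3*. Their values follow without a verdict. *Eef1a1*, translation elongation factor 1 alpha 1, had 488, 424, 431.5, 416.5 and 529.8 CPM in WT mice 1, 11, 13, 14 and 20, against 561, 608 and 771 CPM as the lowest, median and highest of the mD3AKO mice. The log2FC of 0.46 (SE 0.0963) had an adjusted p of 0.073 from edgeR, and DESeq2 gave an adjusted p of 0.0017. In edgeR, *Eef1a1* was called with sex as a term and with blocks of mouse numbers (adjusted p = 0.044 and 0.049), and without WT mouse 20 or exercised mouse 19 (0.041 and 0.032). The blocks are mice 1 to 6, all female, mice 7 to 19, all male, and mice 20 to 25, all female. A term for blocks thus contains the term for sex, here and below, and the fits with either are not separate evidence. Of the 31-base words of *Eef1a1*, 49.8% are found in other transcripts, foremost those of its pseudogenes *Gm13456* and *Gm6170*. *1600002K03Rik* had a log2FC of 0.62 (SE 0.134, adjusted p = 0.083), and *Cux2*, a homeobox transcription factor, of −0.67 (SE 0.147, adjusted p = 0.104). For both, the groups did not overlap. With edgeR, *1600002K03Rik* was called with blocks of mouse numbers (adjusted p = 0.020), and *Cux2* without exercised mouse 6 or 19 (0.041 and 0.039). *Plin3*, a coat protein of lipid droplets, had 0.65 (adjusted p = 0.145) and *H19*, the imprinted long non-coding RNA of the *Igf2* locus, 0.81 (adjusted p = 0.241; 0.81 without mouse 15), with overlapping groups. DESeq2 gave both an adjusted p of 0.018, and with sex as a term in edgeR the adjusted p-values were 0.010 and 0.047. *Plin3* was also called by edgeR with blocks of mouse numbers, with each group split by sex, and without mouse 21 (adjusted p-values of 0.012 to 0.046), and *H19* with blocks and without WT mouse 20 (0.039 and 0.045). The others were *Gm37336* at 0.94, *4932438H23Rik* at 1.36 (called by edgeR without exercised mouse 19, adjusted p = 0.036), *Gm830* at 1.09, *Gm19744* at 1.46, *Dnah3* at −1.20, *Paqr9* at −0.36, and *Egr1*, *Egr2*, *Egr3* and *Errfi1*.

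These last 4 genes belong to the early response of cells to stimulation. *Egr1*, *Egr2* and *Egr3* encode zinc finger factors induced within minutes, and *Errfi1* an inhibitor of the EGF receptor. Their differences at rest came from WT mice 11 and 13, both male. *Egr1* was at 76.7 and 118 CPM in these, at 6.98, 2.93 and 4.48 CPM in WT mice 1, 14 and 20, and between 2.17 and 8.39 CPM in the mD3AKO mice. *Egr3* was at 13.4 and 14.8 CPM in mice 11 and 13 against 0.382 to 1.16 CPM in the other 10 rested mice. *Errfi1* had 90.0 and 136 CPM in them and 18.1 to 27.4 CPM in the others. In log2FC the differences were −3.10 for *Egr1* (SE 0.765, adjusted p = 0.241 from edgeR), −2.53 for *Egr2* (SE 0.627, adjusted p = 0.241), −2.78 for *Egr3* (SE 0.639, adjusted p = 0.145) and −1.40 for *Errfi1* (SE 0.330, adjusted p = 0.178). Without mice 11 and 13 they were 0.018, 0.56, 0.75 and −0.074. DESeq2 called *Egr1* and *Egr3* lower in mD3AKO mice on all mice, at adjusted p-values of 0.033 and 0.019. In edgeR, *Egr3* was called without WT mouse 1, 14 or 20 (adjusted p-values of 0.027 to 0.036), and *Errfi1* without WT mouse 14 or 20 (0.033 and 0.044). Over the 21 genes of the list of immediate early genes, 0 were called by edgeR, 8 were lower and 0 higher at an unadjusted p under 0.05 against 1.57% and 2.08% of all tested genes, and the median log2FC of −0.55 turned to 0.16 without mice 11 and 13.

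**Figure D3:**
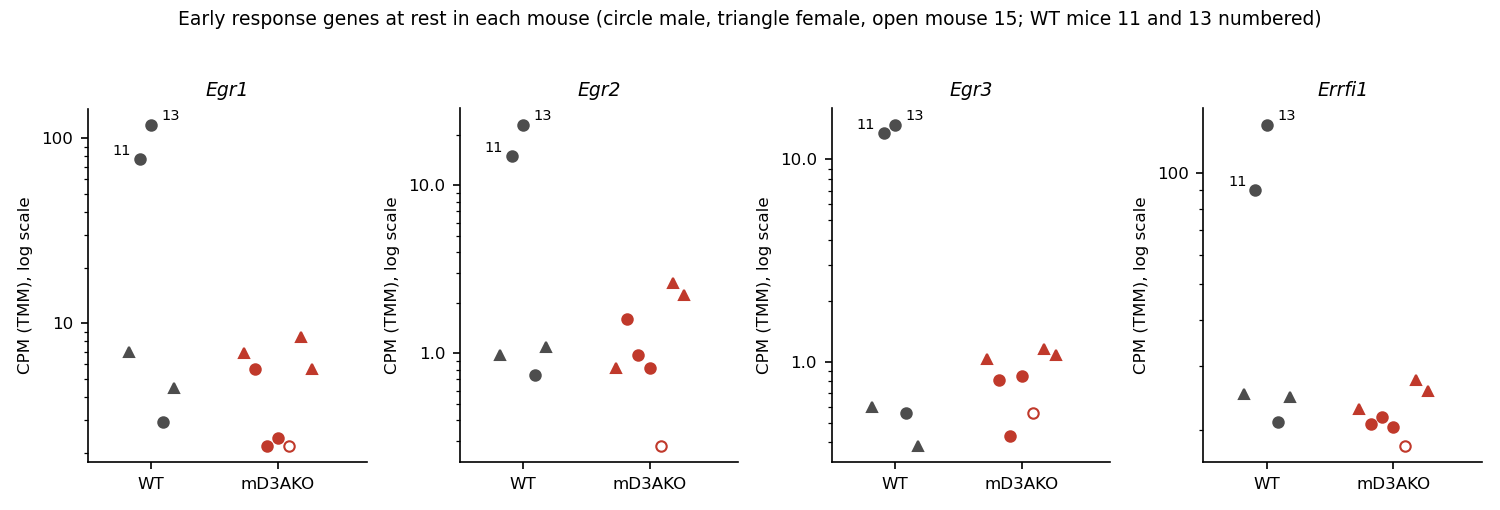
CPM of *Egr1*, *Egr2*, *Egr3* and *Errfi1* on a log scale in each rested mouse, with circles for males, triangles for females and an open symbol for mouse 15. WT mice 11 and 13 are numbered and lie above the other 10 mice in all 4 panels, with *Egr1* at 76.7 and 118 CPM.

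Of the DNA methylation machinery, 19 of 20 genes were tested, and *Dnmt3a* was the only one called, against 0.0918% of all tested genes. *Dnmt3l*, with at most 4 reads in a rested library, was not tested. Per kilobase of exon, WT mice had 6.91 CPM of *Dnmt3a*, 2.32 of *Dnmt1* and 0.212 of *Dnmt3b*, and mD3AKO mice 2.61, 2.27 and 0.198. The second *de novo* enzyme, *Dnmt3b*, had a log2FC of −0.076 (SE 0.215), and *Dnmt1* of −0.022 (SE 0.0905). The values of the TET genes were −0.17 for *Tet1*, 0.0010 for *Tet2* and −0.027 for *Tet3*, with SEs of 0.283, 0.134 and 0.158. The sign of all 5 genes changed in some alternative fit. *Hells*, a chromatin remodeller needed for methylation, had 0.65 (SE 0.219), and *Zbtb38*, a methyl-CpG binding factor, 0.17 (SE 0.0829), both at an unadjusted p under 0.05, as were 2.08% of all tested genes in that direction, and not called. *Uhrf1*, which brings DNMT1 to newly copied DNA, had 0.53 (SE 0.302), and its reads were few, at 0.672 ± 0.186 CPM in WT mice (SD, n = 5). Of the other 10 members, the values ran between −0.048 for *Mbd3* and 0.16 for *Mbd4*.

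Besides *Dnmt3a*, the list of genes that the study named for genotype held 17, and as it chose them on these and the exercised samples, their count is no independent evidence of direction. At rest, 6 were called by edgeR, all higher (*Myh8*, *Aldh1l1*, *Sim2*, *Eya4*, *Rhoh* and *Rab17*; 0.0918% of all tested genes were called), and 11 were not. Of these, *H19* and *Eef1a1* were called by DESeq2, and by edgeR with sex as a term or with blocks of mouse numbers, and *1600002K03Rik* by DESeq2 and with blocks, so that these fits called 9, 8 and 9 of the 17. The fits with sex and with blocks are not separate evidence, since the blocks also split the sexes. With 1 rested mouse left out, 4 to 7 were called, and *Hoxc9* was among them without mouse 21 (adjusted p = 0.023). Of the 17, 14 were higher and 1 lower at an unadjusted p under 0.05, against 2.08% and 1.57% of all tested genes. Among the 11 were *Pax7*, the factor of satellite cells, at 0.37 (SE 0.151, adjusted p = 1.00 from edgeR), *Myog* at 0.52 (SE 0.315), *Agtrap* at 0.34 (SE 0.106, adjusted p = 0.727), *Elf3* at 0.72 (SE 0.334), *Hoxc9* at 0.43 (adjusted p = 0.293), *Cux1* at 0.18 (SE 0.0554), *Hoxa10* at −0.24 (SE 0.0822) and *Wnt16* at −0.70 (SE 0.389). The values of *Pax7* were 3.37 to 6.39 CPM in WT and 5.21 to 7.19 CPM in mD3AKO mice.

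No gene of either fiber type list passed the test. In the list of slow fiber genes, 0 of 14 were called by edgeR and 0 had an unadjusted p under 0.05, against 0.0918% and 3.65% of all tested genes. The median log2FC was 0.089, with *Myh7*, the slow myosin heavy chain, at 0.14 (SE 0.187) and *Atp2a2*, the slow calcium pump, at 0.070 (SE 0.135). In the list of fast fiber genes, 0 of 16 were called and again 0 had an unadjusted p under 0.05, against the same shares of all tested genes. Here 1 of 16 values was above 0 (up to 5 of 16 when a rested mouse was left out, the highest without mouse 21), against 53.4% of all tested genes, and the median was −0.14, and −0.13 without mouse 15. *Tnnt3*, fast troponin T, had −0.14 (SE 0.145), *Atp2a1*, the fast calcium pump, −0.080 (SE 0.121), and *Myh1*, the chain of type IIX fibers, 0.011 (SE 0.251). The members of a list are measured in the same mice and are not independent. Without mouse 2, the slow median was 4.0e-04. Without mice 11 and 13 the medians were −0.053 for the slow and −0.069 for the fast list.

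Lists of muscle regulation held 1 called gene, *Eya4*, among 17 myogenic factors tested, against 0.0918% of all tested genes and not called in the rested libraries alone, with a median log2FC of 0.019. *Mef2c* had −0.0045 (SE 0.0974) and *Mef2a* 0.070 (SE 0.0644). Of 17 genes of the denervation response, 0 were called by edgeR and 2 were higher at an unadjusted p under 0.05, against 2.08% of all tested genes. *Chrna1*, the alpha subunit of the acetylcholine receptor, had 0.58 (SE 0.162, adjusted p = 0.536, and 0.0044 with blocks of mouse numbers), *Sln*, sarcolipin, 0.52 (SE 0.320), *Musk* 0.018 (SE 0.171) and *Hdac4* −0.013 (SE 0.145). Their median was 0.16, and 0.077 without mouse 7 and 0.097 without mouse 2.

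In metabolism, 1 of 29 tested genes of the folate and methionine cycle was called, *Aldh1l1*, against 0.0918% of all tested genes, with a median of 0.046 for the list. *Mthfd1*, the trifunctional folate enzyme, had 0.12 (SE 0.0540), *Mat2a*, which makes S-adenosylmethionine, −0.16 (SE 0.0895), and *Mat2b*, its regulatory subunit, 0.0053 (SE 0.0973). Of 33 genes of glutathione metabolism, 0 were called by edgeR, and 1 was higher and 1 lower at an unadjusted p under 0.05, against 2.08% and 1.57% of all tested genes. These were *Gpx7*, at a log2FC of 0.59 (SE 0.165, adjusted p = 0.526 from edgeR), and *Gstm2*, at −0.41, both named after their values were seen. *Gstm2* was called lower with sex as a term and with blocks of mouse numbers. By sign alone, 7 of 33 values were above 0 (7 to 11 when a rested mouse was left out), against 53.4% of all tested genes. The median was −0.075, between −0.103 without WT mouse 11 and −0.041 without mouse 7 (−0.093 without mouse 15), with *Mgst3* at −0.095, *Gsto1* at −0.075, *Oplah* at −0.086 and *Gpx4* at 0.020. Nuclear genes of oxidative phosphorylation, 83 tested, gave 0 calls and 0 genes at an unadjusted p under 0.05, against 0.0918% and 3.65% of all tested genes. Of their values, 19 of 83 were above 0 (2 without WT mouse 20 and 43 without mouse 21). The median was −0.034, with *Atp5b* at −0.037 and *Sdha* at −0.0085. The 8 tested mitochondrially encoded genes had a median of −0.016, with 3 of 8 values above 0. It was −0.20 without mouse 15, with 0 of 8 above 0, and 0.14 without WT mouse 14, with 8 of 8 above 0. There were 0 calls and 0 genes at an unadjusted p under 0.05 in edgeR, against the same shares of all tested genes. *mt-Co1*, a subunit of complex IV, had a log2FC of −0.063 (SE 0.177). The 24 genes of insulin action and of glucose and fat use had 0 calls and 0 genes at an unadjusted p under 0.05, against 0.0918% and 3.65% of all tested genes. Their median was 0.024, with *Lpl*, *Pfkm* and *Pdk4* at −0.024, −0.038 and 0.27.

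Germline genes and one copy of imprinted genes are known to be silenced by methylation. Of 32 germline genes 6 passed the filter on low counts. Of these, 0 were called and 0 had an unadjusted p under 0.05 (edgeR), against 0.0918% and 3.65% of all tested genes. *Tdrkh*, *Piwil2*, *Brdt* and *Tdrd9* had log2FCs of 0.13, 0.011, −0.079 and 0.25, with SEs of 0.282, 0.180, 0.186 and 0.260. Of 37 imprinted genes tested, 0 were called in the edgeR fit of the 4 groups. *H19* was called by DESeq2, and by edgeR with sex as a term, with blocks of mouse numbers and without WT mouse 20 (adjusted p-values of 0.039 to 0.047). Of the 37, 3 were higher and 1 lower at an unadjusted p under 0.05, where 2.08% and 1.57% of all tested genes were. *H19* had 1577 to 3335 CPM in WT and 2953 to 5326 CPM in mD3AKO mice, so that WT mouse 20 was above the lowest mD3AKO mouse. *Igf2r*, *Grb10* and *Ube3a* had 0.12, 0.27 and 0.042 (SEs 0.0728, 0.188 and 0.102). Of 25 Hox genes tested 0 were called by edgeR (1, *Hoxc9*, without mouse 21), 2 were higher and 1 lower at an unadjusted p under 0.05 against the same shares of all genes, with a median of 0.13. Among 19 clock genes, 0 were called by edgeR and 1 was lower at an unadjusted p under 0.05, against 1.57% of all tested genes, with *Tef* at −0.11 and *Nr1d2* at −0.038.

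Without mouse 15, the median log2FC of the list was −0.021 for insulin action and glucose and fat use and −0.0016 for myogenic factors, so that both turned from above to below 0. For the clock genes it moved from −0.038 to −0.11, and for nuclear genes of oxidative phosphorylation from −0.034 to −0.078. It was 0.043 for the folate and methionine cycle, 0.20 for the denervation response, 0.11 for Hox genes and 0.088 for slow fiber genes. For fetal and perinatal contractile genes it was 0.83, and for immediate early genes −0.60. The methylation machinery had 0.0010 with and 0.023 without mouse 15. The imprinted genes had 0.12 with and 0.13 without mouse 15, the germline genes 0.13 and 0.068, and the genes named by the study 0.52 and 0.57. Other mice moved some medians by more. With each rested mouse left out in turn, the imprinted genes ranged from 0.049 (without mouse 21) to 0.14, and had 0.071 without mouse 7. The germline genes ranged from 0.031 (without WT mouse 13) to 0.21 (without mouse 12), Hox genes from 0.079 (without WT mouse 20) to 0.15, the methylation machinery from −0.014 (without mouse 21) to 0.057 (without WT mouse 20), and the folate and methionine cycle from 0.0075 (without mouse 2) to 0.052. Nuclear genes of oxidative phosphorylation ranged from −0.088 (without WT mouse 20) to 0.0017 (without mouse 21), insulin action and glucose and fat use from −0.021 to 0.097 (without mouse 21), myogenic factors from −0.0086 (without mouse 2) to 0.052 (without mouse 7), and clock genes from −0.11 to 0.013 (without mouse 7). Slow fiber genes reached 0.17 without WT mouse 1, fast fiber genes ranged from −0.21 (without WT mouse 20) to −0.059 (without WT mouse 14), and immediate early genes from −0.69 (without WT mouse 20) to −0.29 (without WT mouse 13).

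**Figure D4:**
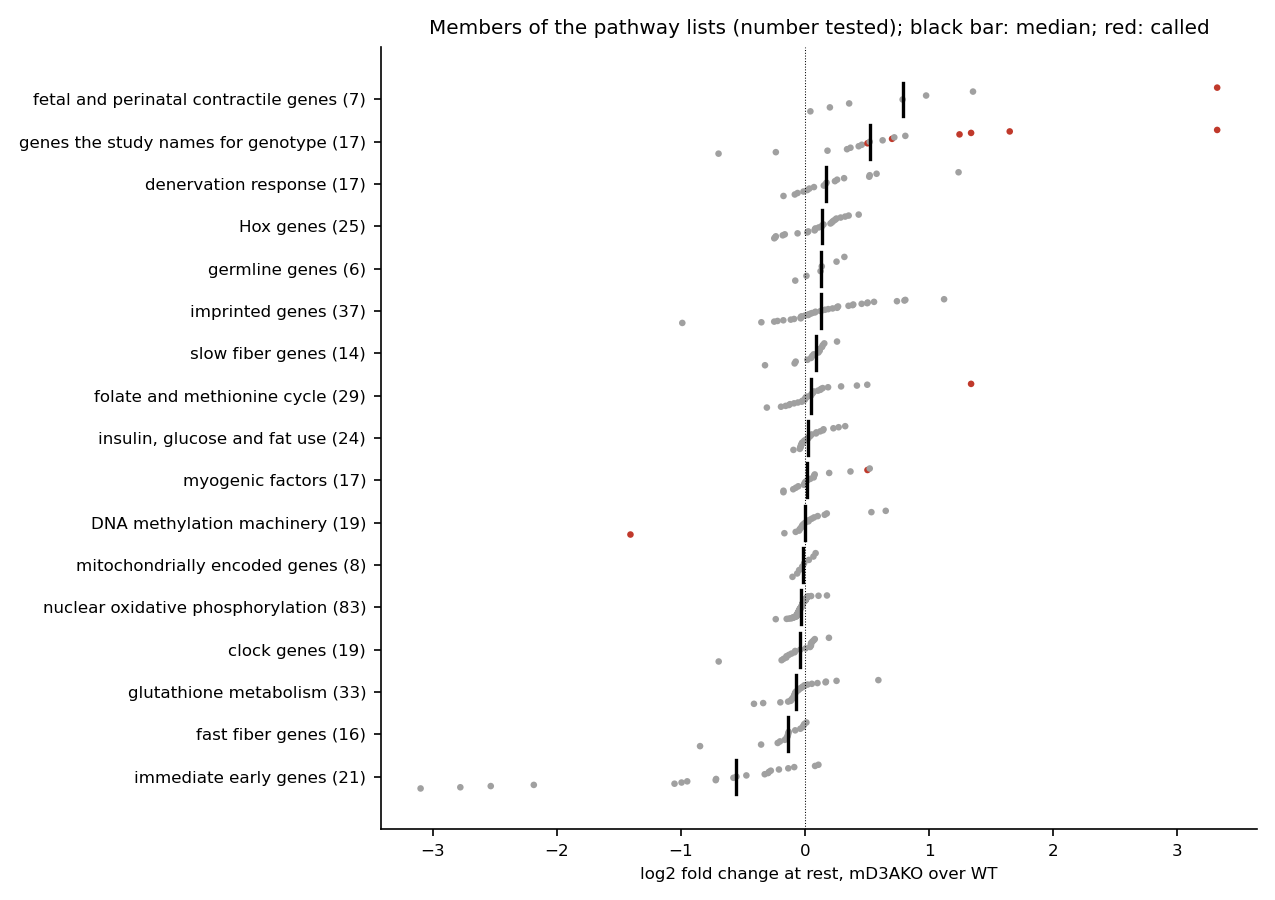
Log2 fold changes of mD3AKO over WT mice at rest for the tested members of 17 gene lists, 1 point per gene, with the median as a black bar and called genes in red. The medians lie between −0.55 for the immediate early genes and 0.79 for the fetal and perinatal contractile genes (0.16 without mice 11 and 13, and −0.062 without mouse 7), and 12 lists hold no red point.

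Markers of other cell types overlapped between the groups in their summed CPM. Fibroblast markers (8 genes) ran from 1520 to 3193 in WT and from 1161 to 5638 in mD3AKO mice, endothelial markers (8) from 436 to 580 and from 430.1 to 559, and satellite cell markers (10) from 256 to 314 and from 254 to 340. Adipocyte markers (8) ran from 322 to 535 in WT and from 222 to 868 in mD3AKO mice, with *Ucp1* at 0 in all rested mice. The median log2FC of those tested was −0.22, and −1.20 without mouse 21. For Schwann cells (7) the ranges were 67.5 to 252 and 75.0 to 659.5, with mouse 21 alone above 126 among the mD3AKO mice, and for blood (6) 129 to 416 and 73.7 to 465. By sign alone, all tested markers of fibroblasts (8), Schwann cells (7), immune cells (6) and tendon (5) were above 0, and 0 of 7 of adipocytes. The other lists held both signs, and 53.4% of all tested genes were above 0. Without mouse 21, 0 of 7 Schwann cell markers were above 0, and their median log2FC moved from 0.51 to −0.32. Without mouse 7, 6 of 8 fibroblast and 2 of 6 immune cell markers were above 0, and without WT mouse 20, 5 of 7 of adipocytes. Of the 69 marker genes tested, 0 were called by edgeR, and 1 was higher and 1 lower at an unadjusted p under 0.05, both of satellite cells, against 2.08% and 1.57% of all tested genes. Of the residual *Dnmt3a*, the highest value, 53.9 CPM, was that of mouse 21, and the part of these cells in it was not tested.

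The second set of mice, exercised and killed 60 minutes later, shares no mouse with the rested set, though both share one fit. There, 18 of 16340 genes were called between the genotypes (0.11%), 17 higher (0.104%) and 1 lower. Of the 15 genes called at rest, 13 were also called after exercise, all 15 kept their direction, and all 15 had an unadjusted p under 0.05. *Dnmt3a* had a log2FC of −1.63 (SE 0.0990) after exercise. *Myh8* had 3.46 (SE 0.435), *Aldh1l1* 1.12 (SE 0.189), *Mttp* 1.09 (SE 0.134), *Slc38a1* 1.35 (SE 0.169), *Eya4* 0.52 (SE 0.0767), *Sim2* 0.63 (SE 0.101), *Kcne1l* 1.96 (SE 0.282), *Rhoh* 1.27 (SE 0.233) and *Rab17* 2.26 (SE 0.314). *Gm31520* was at 0 reads in all 7 exercised WT mice and at 29 to 100 in each of the 6 exercised mD3AKO mice, and *Gm44289* at 5 reads in all WT mice together and at 29 to 87 in each mD3AKO mouse. Called at rest but not after exercise were *Calml3*, at 1.36 (SE 0.391, adjusted p = 0.422 from edgeR), and *D430041D05Rik*, at 0.72 (SE 0.154, adjusted p = 0.063). Called after exercise but not at rest were *Cmtm7*, *Gm43691*, *Agtrap*, *Elf3* and *Gm47708*. Of these, *Gm43691* overlaps exons of *Mttp* on the other strand, and whether it holds reads of *Mttp* was not tested. After exercise, 12 of the 14 rises did not overlap between the genotypes, where 0.159% of all tested genes did so in that direction (0.251% in either) and 50.6% of all were higher in mD3AKO mice by sign alone.

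**Figure D5:**
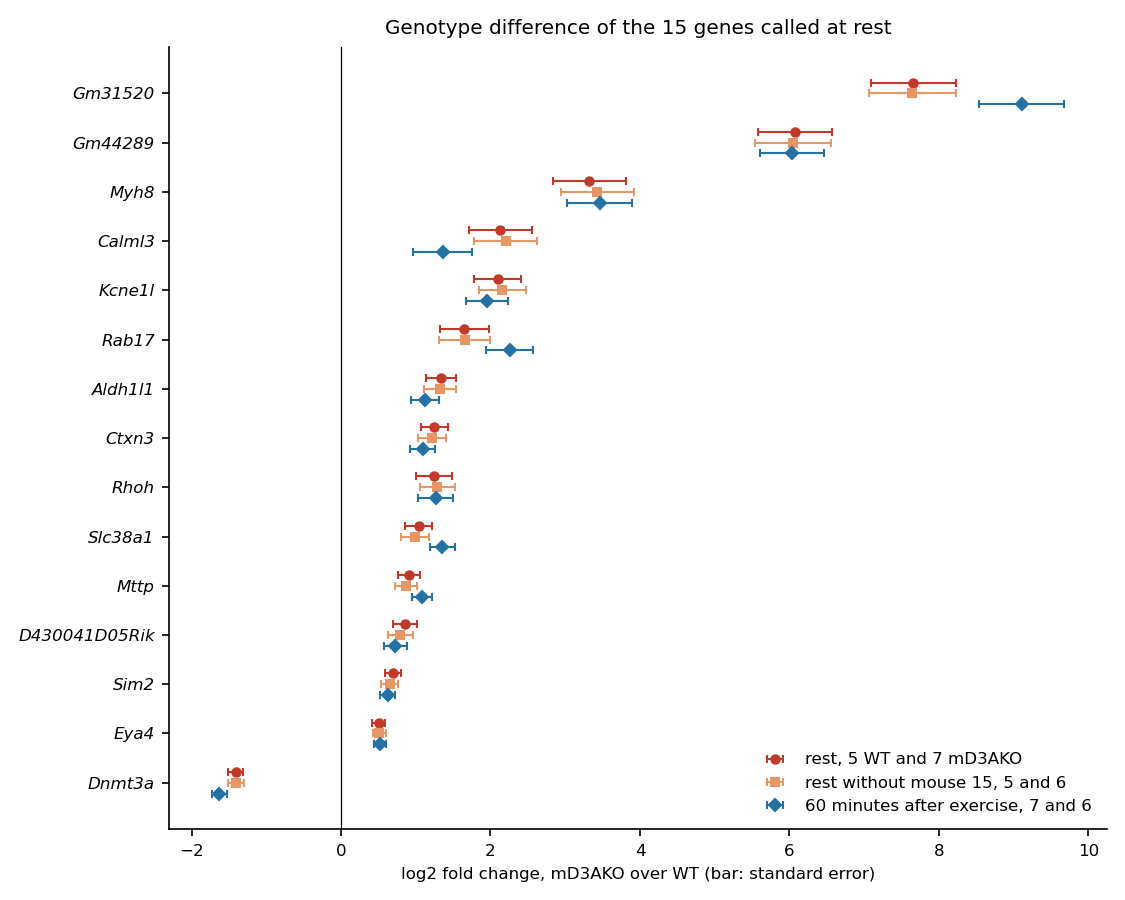
Log2 fold change of mD3AKO over WT mice for the 15 genes called at rest, with standard errors as bars, at rest with all 12 mice, at rest without mouse 15, and in 13 other mice 60 minutes after exercise. All 14 rises lie above 0 in all 3 estimates, from *Eya4* near 0.50 to *Gm31520*, whose value against a single WT read depends on the prior count of the fit.

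These lists of calls do not test a difference between rest and exercise. The test of that difference called 0 of 16340 genes in edgeR, with 403 (2.47%) at an unadjusted p under 0.05 and a lowest adjusted p of 1.00, and DESeq2 called 0 as well, with 386 at an unadjusted p under 0.05. For the 15 genes, the genotype difference at rest minus that after exercise was 0.22 for *Dnmt3a* (SE 0.139), and 7 of the 14 rises were larger at rest.

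Between the sexes, the genotype difference at rest was also compared. In a fit that also split each group by sex, 16 genes were called in males (0.0979%) and 4 in females (0.0245%). Fits on the mice of each sex alone called 4 genes in males and 4 in females. The difference between the sexes itself was called for 0 genes by edgeR, with 353 (2.16%) at an unadjusted p under 0.05 and a lowest adjusted p of 0.620. *Dnmt3a* had −1.49 (SE 0.136) in males and −1.30 (SE 0.160) in females. *Myh8* had 3.27 and 3.30, *Aldh1l1* 1.40 and 1.24, *Mttp* 0.81 and 1.01, and *Eya4* 0.48 and 0.53 in males and females. Each of the 14 rises was above 0 in both sexes, which is no independent evidence, since they were called as higher in these same mice.

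Over the whole transcriptome, no separation of the rested mice by genotype was detectable. Of the squared distances summed over pairs of the 12 libraries (log2 CPM, all tested genes), 7.61% fell to genotype, where 9.09% is the mean over all 792 ways to choose 5 of 12 mice, with p = 0.669 in a one-sided exact permutation test. Without mouse 15 the share was 9.44% (exact permutation test, p = 0.511). The share was 16.9% among the 7 males (exact permutation test, p = 0.371; mean over splits 16.7%) and 17.1% among the 5 females (exact permutation test, p = 0.80; mean over splits 25.0%), whose 10 possible splits cannot give a p under 0.1. It ranged from 7.56% to 9.90% with each rested mouse left out in turn.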

How the data were processed

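Total RNA of the *soleus* was sequenced, 1 library per mouse. The authors depleted ribosomal RNA, made stranded libraries, read them as 75-bp paired ends and counted the reads on the genes of GENCODE release 15 (mm10). The submitters' processing notes list FastQC 0.11.5, STAR 2.5.3a and featureCounts 1.5.3. Whether counting used the strand is not given in the sources used here, so reads of overlapping and antisense genes may be mixed. The deposited values are raw counts per gene and library, with no filter, and 0 columns belonged to samples outside the series. Columns were matched to genotype, exercise, sex and mouse number by the labels.

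All else was computed here. Symbols came from GENCODE release 21, which gave one for 52403 of 52636 genes, and promoter sequences from RefSeq (GRCm38.p6). Genes were kept by filterByExpr (4 groups, minimum count 10, minimum total 15). Counts were TMM-normalized, and 4 group means were fitted over 25 libraries and compared by the quasi-likelihood F test of edgeR (version 4.0.16, with limma 3.58.1, R 4.3.3). The SE of a log2 fold change is its absolute value over the root of F. Benjamini-Hochberg adjustment ran over all tested genes, with 0.05 as the threshold of a call. CPM used TMM library sizes, and log2 CPM for distances a prior count of 2. DESeq2 1.42.0 was an alternative. Totals of counts are 22671457 to 37431801 per library, which makes values near 0.1 CPM rest on a few reads. Counts differed beyond sampling noise in each of the 31 pairs of rested replicates (chi-square per gene at least 14.1). The labels do not say whether mice shared a litter or a library batch. The edgeR steps were tested on simulated data.

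Genes are named where they belong to the DNA methylation machinery, where the study names them for genotype, where they were called at rest, and for the smallest p-values up to 30 genes in all. Up to 4 members of each list (called first, then by CPM) and up to 2 markers of a cell type are also named. The values of 2 of these genes are not reported here. The genes, lists and tests were chosen with earlier results of these data known. Alternatives were sex as a term or as groups, the rested libraries alone, leaving out mouse 15, DESeq2, other scalings and filters, each sex alone, blocks of mouse numbers, robust fitting, leaving out the ribosomal RNA genes and leaving out each mouse. Leaving out mice 11 and 13, and the 11 rested libraries without mouse 15, were added after seeing the data.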

Additional observations from a re-analysis of the deposited data

Results flagged for a closer look

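Samples far from the others of their group were looked for with Dixon's test at its 95% critical value in 280 groups of values (128 of the named genes, among them up to 4 of each list and 2 of each marker list, total counts, ribosomal RNA shares and marker sums, in WT and in mD3AKO mice at rest). 26 groups, or 9.29%, passed it. Chance gives about 1 in 20 only where values are normally distributed, which was not tested for CPM, so the share is not read as an excess. The groups are also not independent, since genes of one list share the same mice. None of the called genes other than *Gm31520* was among them.

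Mouse 15, a male mD3AKO mouse, had 39.51% of its counts on ribosomal RNA against 8.19% to 10.5% in the other 6 mD3AKO mice. Most of it, 31.6% of its counts, was mitochondrial. It was also the highest of its group for *mt-Cytb* (7811 CPM), *mt-Nd1* (6877 CPM), *mt-Nd4* (1711 CPM), *Mbd3* (47.42 CPM against 32.1 to 37.5 CPM) and *Mef2a* (126.3 CPM). Mouse 7, a male mD3AKO mouse, was the highest for *Myh3* (506.2 CPM), *Myl4* (65.26 CPM against 5.59 to 10.8 CPM), *Actc1* (52.81 CPM) and the collagen gene *Col3a1* (2751 CPM against 222 to 1130.0 CPM). Mouse 2, a female mD3AKO mouse, was the highest for *Chrna1* (107.8 CPM against 56.0 to 73.0 CPM), *Pdk4* (2724 CPM), *Atp2a2* (10260.0 CPM), *Sdc4* (87.08 CPM) and *Btg2* (83.73 CPM).

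Mouse 21, a female mD3AKO mouse, had the highest sum of Schwann cell markers, 659.5 CPM against 75.0 to 126 CPM in the others, with the myelin gene *Pmp22* at 225.7 CPM. Its sum of adipocyte markers was 867.7 CPM against 222 to 383 CPM, with *Cfd* at 316.2 CPM. Among WT mice, mouse 20 had 251.7 CPM of Schwann cell markers against 67.5 to 116 CPM. WT mouse 11 had 415.6 CPM of blood markers against 129 to 182.5 CPM, with the globin genes *Hbb-bs* at 278.6 CPM and *Hbb-bt* at 51.79 CPM, and the single WT read of *Gm31520*, 0.03148 CPM against 0 in the other 4. WT mouse 13 was the lowest for *Rora* (74.66 CPM) and WT mouse 14 for *Zbtb33* (5.496 CPM). Called genes numbered 13 without mouse 15, 18 without mouse 21, 12 without mouse 7, 11 without mouse 2, 17 without WT mouse 20, and 12 without WT mouse 11.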

How the results depend on the processing

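No paired analysis was possible because each mouse has its own number and belongs to 1 group. *Dnmt3a*, *Gm31520* and *Gm44289* were called in all 17 alternatives and in all 25 fits that left out 1 mouse, and 10 of the 15 genes in all 25 of those fits. No called gene changed direction in any of them. The count of called genes was 15 as reported, 23 with DESeq2 (19 higher and 4 lower), 4 with males only, 4 with females only, 8 without mice 11 and 13, and 8 with only the 11 rested libraries other than mouse 15. The last 4 fits use fewer mice. It ranged from 11 (without mD3AKO mouse 2) to 18 (without mouse 21, or without exercised mouse 19) when 1 mouse was left out, was 22 with blocks of mouse numbers, 19 with sex as a term, and between 10 and 15 in the other 10 alternatives. Without mice 11 and 13, *Myh8*, *Aldh1l1* and *Mttp* had an adjusted p of 0.060, and *Rhoh*, *Rab17*, *Calml3* and *D430041D05Rik* lost their calls as well. *Sim2*, *Eya4*, *D430041D05Rik*, *Calml3* and *Rab17* were not called in the 12 rested libraries alone, nor in the 11 other than mouse 15, where *Ctxn3* and *Slc38a1* lost their calls as well. Of 115 named genes that were not called, 61 changed sign in some fit, so that no direction is claimed for them. Depth limits the genes near 0.1 CPM: *Calml3* and *Rab17* rested on 1 to 8 reads per WT mouse. Other scalings moved the median log2 fold change of all genes to between −0.013 and 0.010. The count for the difference between rest and exercise was 0 in the edgeR fit of the 4 groups and with DESeq2, and the share of distances stayed without a call.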
